A study of Mus musculus with 24 samples.

Results

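Genes of the mitochondrial permeability transition were followed through 6 mouse small cell lung cancer (SCLC) lines in which p53 can be switched back on. The 9 members are Ppif, Slc25a4, Slc25a5, Vdac1, Vdac2, Vdac3, Tspo, Mcu and Micu2. They were chosen by symbol, without a rule on their values but with earlier results of these data known. All 9 were present among the 25239 genes of the expression table and among the 14104 genes that were tested.

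The permeability transition is the opening of a large, non-selective pore in the inner mitochondrial membrane, which collapses the membrane potential, swells the organelle and can end in necrosis. Calcium in the matrix favours opening, and cyclophilin D, the matrix isomerase encoded by Ppif, sensitises the pore to it. Cyclosporin A (CsA) binds cyclophilins, cyclophilin D among them, and raises the threshold for opening. The ADP/ATP carriers and the ATP synthase of the inner membrane are the main candidates for the pore itself, while the voltage-dependent anion channels (VDACs) and Tspo sit in the outer membrane and the uniporter Mcu brings calcium into the matrix.

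The data were length-scaled transcript abundances (TPM) from mRNA of 24 libraries, in 8 groups of 3 cell lines, all collected at 72 h. Every line came from an individual tumor of a mouse of mixed strain background with floxed Rb1 and Rbl2 (both flox/flox), Trp53 XTR/XTR and Rosa26 FlpO-ER, after adenoviral Cre under the CMV promoter had deleted Rb1 and Rbl2 and had switched on a gene trap in Trp53, so that Control cells as well as treated cells lacked both retinoblastoma family genes. Type D lines (4711-1, 4711-18 and 4716-11) die by necrosis when p53 returns, whereas Type V lines (4711-11, 4716-10 and 4716-14) survive. The paper reports lysis of Type D cells from about the time of collection, and protection from it by CsA. The part of dying cells in the results below was not tested. A line contributed 1 library as vehicle-treated Control, 1 with CsA, 1 after 4-hydroxytamoxifen (4-OHT), which activates FlpO-ER and excises the trap (Restored), and 1 with 4-OHT and CsA. Values of single lines are given below in the order in which the lines are named here. The comparisons ask whether genes of the transition differed between lines that die and lines that survive, and whether restoration or CsA moved them. In the paper, Type D cells in which Ppif was targeted by CRISPR were not enriched after restoration. It proposes a mechanism other than necrosis through this pore, one that involves cyclophilins A and E.

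Trp53 itself separated the treatments, at 10.5 to 15.3 TPM in the 12 libraries without 4-OHT and 181 to 253 TPM in the 12 with it, and its target Cdkn1a, a cell cycle inhibitor, ran from 37.5 to 145 and from 1068 to 2540 TPM. Rb1 (7.36 to 68.8 TPM) and Rbl2 (4.49 to 20.6 TPM) were listed above 0 in every library, and values per gene do not show which exons were lost. Of 8 neuroendocrine markers, Chga was at 0 throughout, and Calca and Neurod1 did not exceed 0.105 and 0.0954 TPM, so several of these markers were at or near 0 in both types. Syp reached at most 1.41 TPM, Ncam1 ran from 4.46 to 27.3 TPM and Insm1 from 0 to 49.6 TPM. Uchl1 was lower in Type D in every condition, with means of 0.811 and 27.3 TPM in Control (-4.01 on the log2 scale, limma adjusted p = 1.05e-05), and it fell with restoration in Type V (-2.08, adjusted p = 0.0062). Uchl1 thus moved with every comparison between the types and, in Type V, with restoration, and its part in the results below was not tested. Summed over 5 fibroblast markers, Control libraries held 0.595 to 1.31 TPM in Type D and 185 to 457 TPM in Type V. Col1a1, Col1a2 and Dcn made up nearly all of that sum, while Lum and Pdgfra reached at most 0.844 and 3.37 TPM. Restored libraries held 0.451 to 1.93 and 27.4 to 184 TPM. The fibroblast sum thus moved with every comparison between the types and, in Type V, with restoration, and its part was likewise not tested. Among the immune markers, Cd68 made up most of the sum, while Ptprc and Adgre1 reached at most 0.154 and 0.0449 TPM and Cd3e was at 0. The fifth, Lyz2, reached at most 1.68 TPM and was higher in Type D in Control (1.04 on the log2 scale, limma adjusted p = 0.00773), Control + CsA (1.04, 0.00703) and Restored + CsA (0.98, 0.0129), but not in Restored (0.56, 0.129). The sum of the 5 immune markers went from 8.84 to 11.1 TPM in Type D Control to 30.4 to 56.0 TPM in Type D Restored, and from 6.96 to 10.2 TPM to 16.2 to 31.9 TPM in Type V, so that it moved with restoration. The part of these markers in the results was not tested either. The 3 endothelial markers summed to at most 0.615 TPM in any library.

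The 9 genes spanned more than an order of magnitude in level. By TPM, which is scaled by transcript length, Slc25a4 had the highest mean in each of the 8 groups and Ppif ranked last of the 9 in all 24 libraries. Mcu and Micu2 ranked seventh and eighth in each library. Against the 14104 genes tested, the mean TPM of Slc25a4 over all libraries stood at the 99.4th percentile and that of Ppif at the 49.0th. In Type D Control the order was Slc25a4, Tspo, Slc25a5, Vdac2, Vdac1, Vdac3, Mcu, Micu2 and Ppif, and the values of Slc25a4 and Tspo and of Vdac3 and Mcu overlapped between neighbours. In Type V Control it was Slc25a4, Slc25a5, Tspo, Vdac1, Vdac3, Vdac2, Mcu, Micu2 and Ppif, with overlap of Slc25a5 with Tspo, Tspo with Vdac1, Vdac3 with Vdac2, and Mcu with Micu2.

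**Figure D1:**
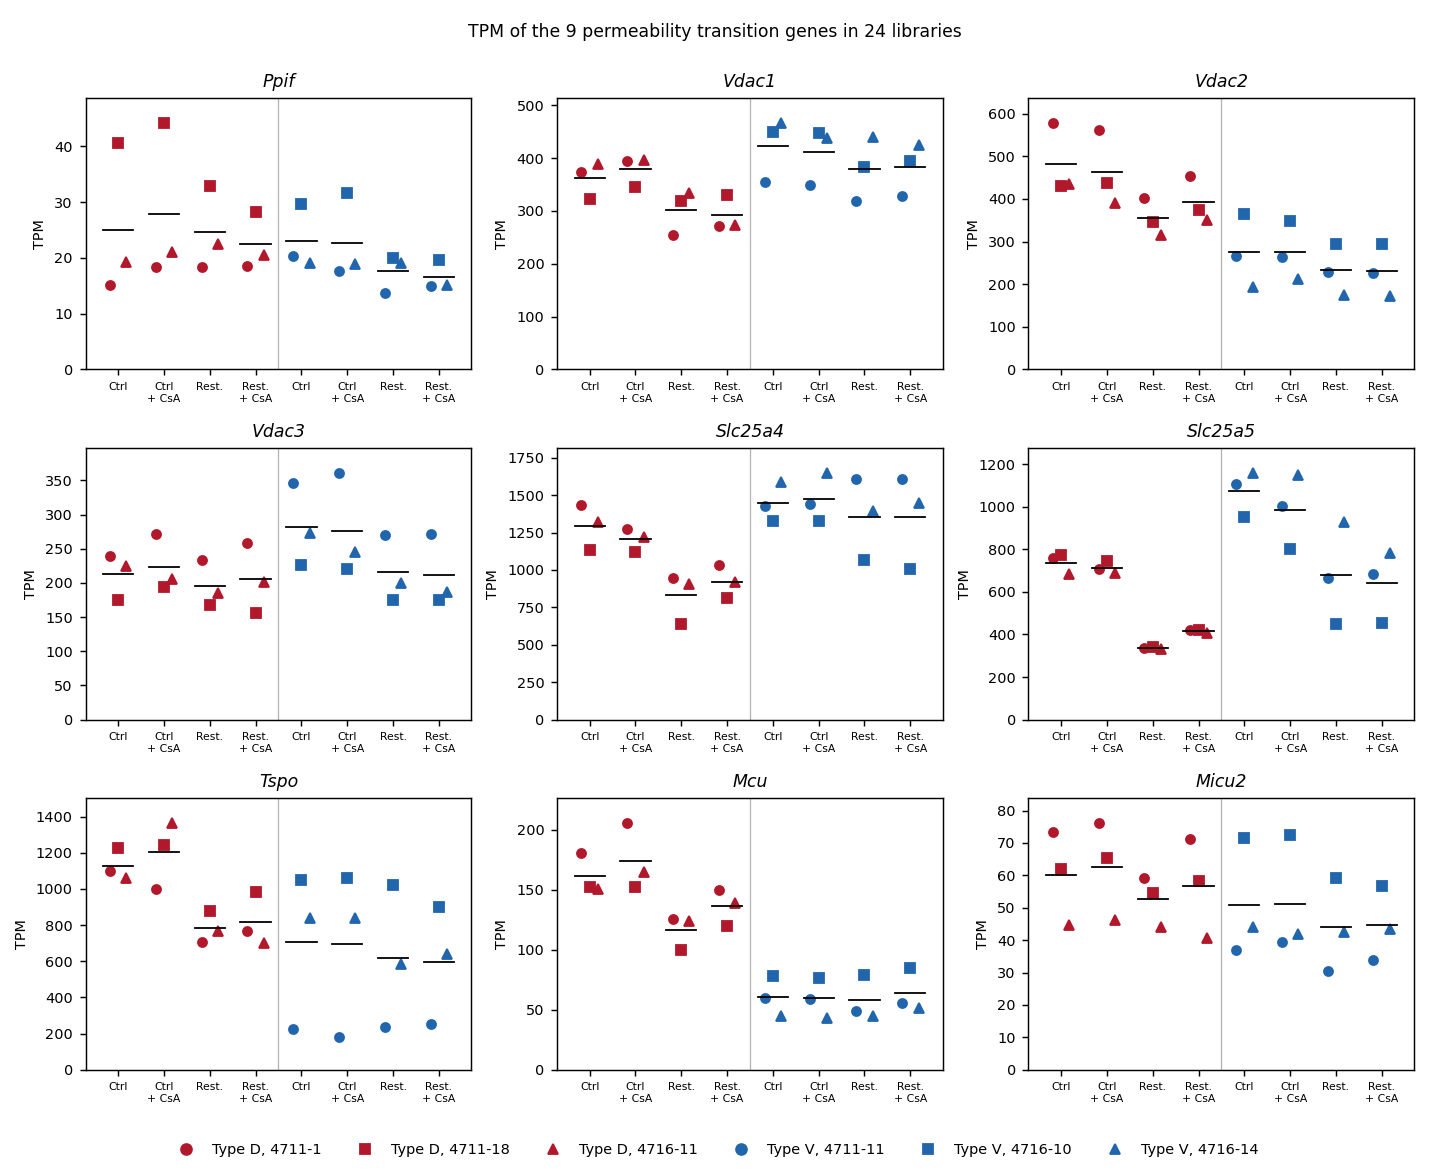
TPM of each of the 9 genes (linear axes from 0) in the 24 libraries. Groups are along the horizontal axis (Ctrl, Control; Rest., Restored), symbols mark cell lines, red is Type D, blue is Type V and bars are means of 3 lines. Mcu lies at 99.8 to 206 TPM in the Type D libraries and at 42.9 to 85.0 TPM in the Type V libraries, and Slc25a5 is lower in the Restored than in the Control library of every line.

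Between the types, few of the 9 genes passed the test, which throughout is limma on log2(TPM + 1) with an adjusted p under 0.05 over all genes. Its spread comes from all 24 libraries, with the libraries of a line counted as independent. The p and intervals between the types thus rest on more degrees of freedom than the lines give, and may be too small and too narrow. In Control 2 passed, Mcu and Vdac2, where 13.1% of all tested genes passed. The same pair passed in Control + CsA (background 15%) and in Restored + CsA (background 11.9%). In Restored 3 passed, Mcu, Slc25a4 and Slc25a5, against 14.8% of all genes. These backgrounds come to between 1 and 2 genes in 9, so the counts stand little above them and nothing is read from them about the members as a group. The libraries of Type D and Type V did not overlap for 4 members in Control, Control + CsA and Restored and for 3 in Restored + CsA, where 31.4%, 31.8%, 29.2% and 30% of all genes were as separate. The members in question were Mcu, Vdac2 and Slc25a5 in every condition, with Tspo in Control and Slc25a4 in Control + CsA and Restored. The median difference of the members was 0.02 on the log2 scale in Control and 0.29 in Restored, beside -0.12 and -0.07 for all genes. In Control + CsA the median of all genes was -0.13, and with median-ratio scaling it was -0.02 in both conditions without 4-OHT. In bulk libraries fewer cells expressing a gene and less RNA per cell cannot be told apart, here and below.

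**Figure D2:**
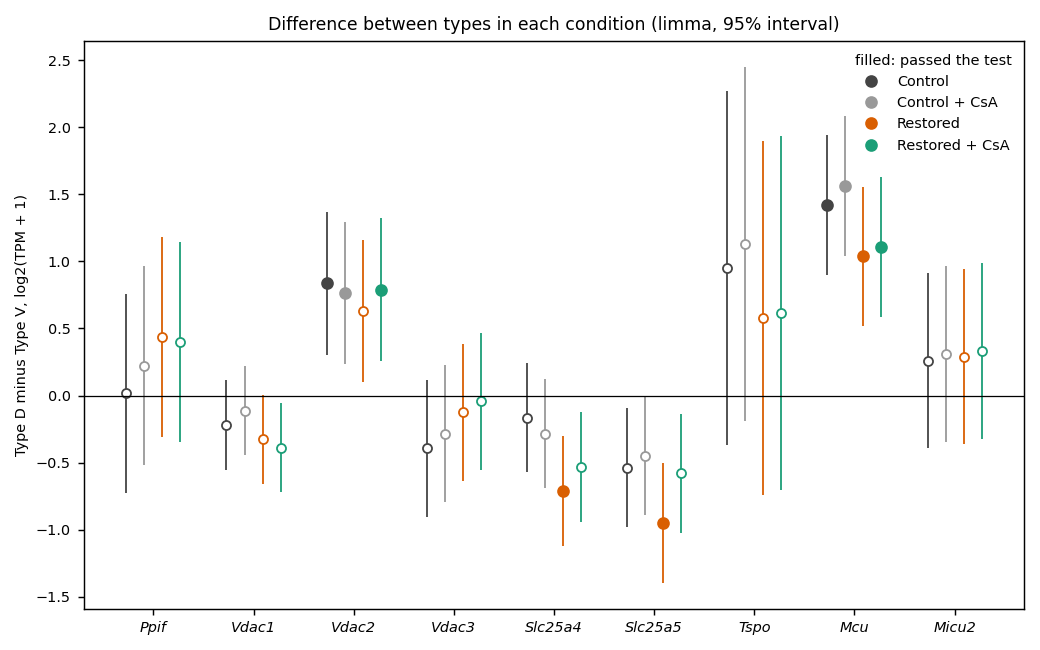
Difference between Type D and Type V in log2(TPM + 1) for each gene (vertical axis), in the 4 conditions. Points are limma estimates from 3 against 3 lines, lines are 95% intervals, and filled points passed the test. Mcu is filled in all 4 conditions, at 1.04 to 1.56, and Vdac2 in 3 of them, while the intervals of Tspo are the widest.

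With restoration the members that passed were lower. In Type D 2 fell, Slc25a5 and Slc25a4, and none rose, where 5.05% of all genes passed as lower (12.9% in either direction). In Type V Slc25a5 alone fell (4.57% of all genes lower, 9.95% in either direction). With CsA present in both arms, Slc25a5 fell in Type D (2.91% of all genes lower, 8.89% in either direction) and no member passed in Type V, where 7.71% of all genes passed, 3.4% as lower, and 19.5% at an unadjusted p under 0.05. Slc25a5 had an unadjusted p of 0.00713 there. In Type D 8 of 9 members were lower and none higher in all 3 lines, both without and with CsA. In either direction, 65.3% and 61.2% of all genes moved one way in all 3. In Type V 5 of 9 were lower and none higher in all 3 lines in each setting (57.7% and 54.8% of all genes moved one way, in either direction). Over the members the median change was -0.43 in Type D (all genes 0.07) and -0.20 in Type V (all genes 0.05).

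The 4 libraries of a line are paired, and line-to-line spread was large for several members, so the fit with the cell line as a block is given beside these counts. With it 6 members fell in Type D (Slc25a5, Vdac2, Slc25a4, Mcu, Tspo and Vdac1), where 17.6% of all genes passed as lower and 45.3% in either direction. In Type V 3 fell (Slc25a5, Vdac3 and Vdac2), against 17.8% lower and 40.6% in either direction. Under CsA 6 fell in Type D (the background being 14% lower and 41.1% in either direction) and 4 in Type V (16.5% lower, 37.1% in either direction), the latter being Slc25a5, Vdac3, Vdac2 and Ppif. No member rose in any of these blocked comparisons. The block could not be fitted between the types, since a line belongs to 1 type.

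**Figure D3:**
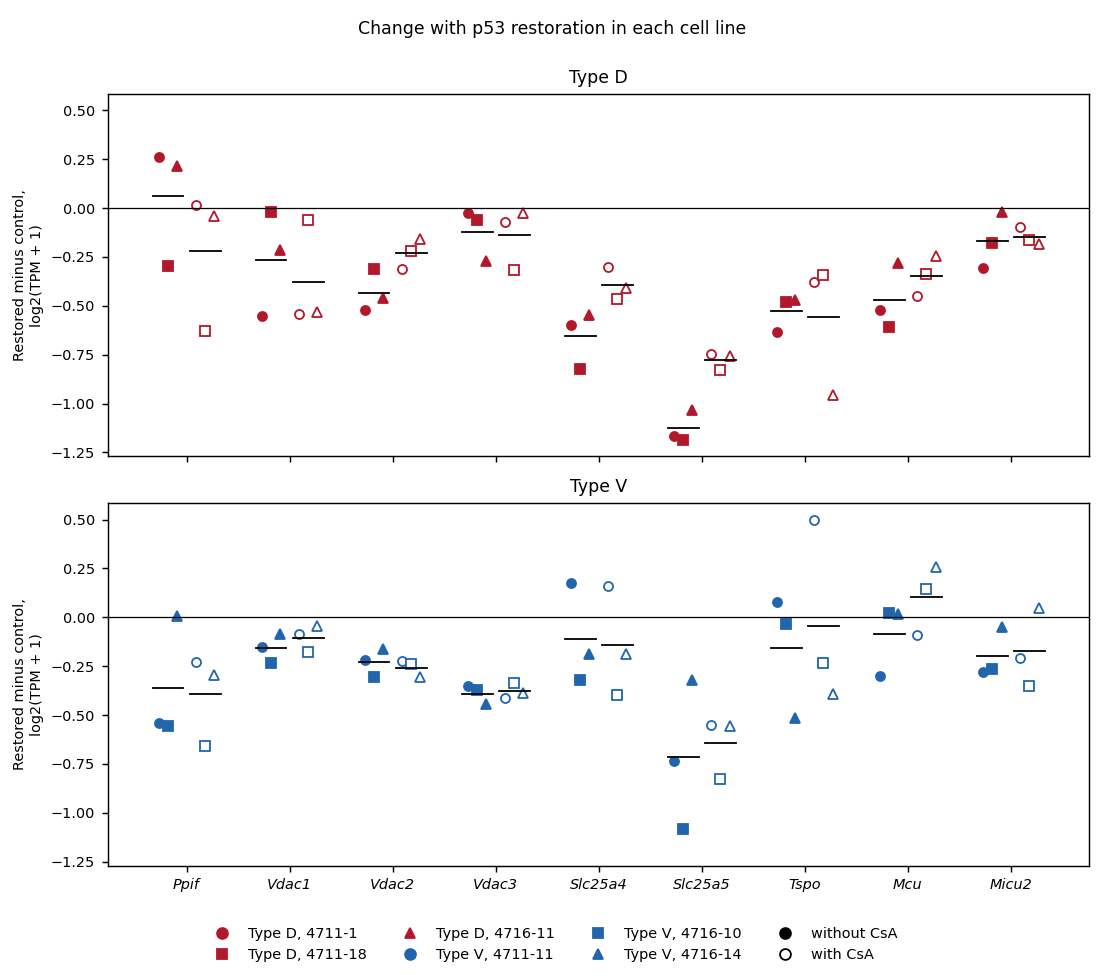
Change with p53 restoration in log2(TPM + 1) for each gene (vertical axis) in each line. Filled symbols are Restored minus Control, open symbols are Restored + CsA minus Control + CsA, and bars are means of 3 lines. In Type D every symbol except those of Ppif lies below 0, and Slc25a5 shows the lowest means in both types, -1.13 and -0.71 without CsA.

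Whether restoration acted on the members differently in the types was tested as a difference of changes, which no member passed (0.0284% of all genes passed, and 5.57% with the block, again with no member). The member nearest to the threshold with the block was Slc25a4, described below. At an unadjusted p under 0.05, no member passed without the block, where 3.83% of all genes did.

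CsA alone left no member past the test. In Type D and Type V, without and with restored p53, 0 of 9 passed in limma, with and without the block, and none had an unadjusted p under 0.05 without the block. The background was as low, 0%, 0% and 0% of all genes for CsA in Control Type D, Control Type V and Restored Type V, and 0.0142% in Restored Type D. At an unadjusted p under 0.05, 0.808%, 0.383%, 0.709% and 1.62% of all genes passed in the same order, and with the block 0.0142%, 0%, 0% and 0.411% passed. For CsA in Control, 4 members moved one way in all 3 Type D lines (Ppif, Vdac1 and Micu2 higher, Slc25a4 lower; 34.1% of all genes) and 3 in Type V (Vdac1, Slc25a5 and Mcu lower; 37.9%), and for CsA in restored Type V lines 1 did (Mcu higher; 33.2%). These comparisons share libraries with those of restoration and of the types, so they are not independent of them.

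Promoter windows from RefSeq (GRCm38.p6), the 250 bases before a start site, were at hand for 6 of the 9 members. The windows of the ADP/ATP carriers Slc25a4 and Slc25a5, which fell together in Type D, and of Mcu, which differed between the types, are shown 5′ to 3′ on the strand of the gene. Capitals mark matches, on either strand, to the CCAAT box (CCAAT) or the GC box (GGGCGG). The windows are chr8:46211063-46211312 (minus strand) for Slc25a4, chrX:36795347-36795596 (plus strand) for Slc25a5 and chr10:59616693-59616942 (minus strand) for Mcu.
Slc25a4: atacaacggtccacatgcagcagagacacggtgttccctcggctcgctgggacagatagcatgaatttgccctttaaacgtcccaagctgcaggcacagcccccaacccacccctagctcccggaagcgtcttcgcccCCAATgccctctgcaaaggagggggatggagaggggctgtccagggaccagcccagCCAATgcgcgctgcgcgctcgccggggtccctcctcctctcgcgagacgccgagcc
Slc25a5: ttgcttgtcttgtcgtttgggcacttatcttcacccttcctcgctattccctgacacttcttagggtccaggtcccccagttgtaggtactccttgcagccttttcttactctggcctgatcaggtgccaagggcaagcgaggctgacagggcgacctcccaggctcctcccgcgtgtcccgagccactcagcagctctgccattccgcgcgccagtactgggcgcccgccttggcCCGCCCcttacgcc
Mcu: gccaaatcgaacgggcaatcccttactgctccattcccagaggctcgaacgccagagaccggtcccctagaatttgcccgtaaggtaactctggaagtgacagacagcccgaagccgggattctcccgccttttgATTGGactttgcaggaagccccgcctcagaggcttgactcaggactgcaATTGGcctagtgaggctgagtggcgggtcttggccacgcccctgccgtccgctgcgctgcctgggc

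Slc25a4 and Mcu each held 2 CCAAT boxes, at 112 and 56 and at 115 and 66 bases before the RefSeq start, and no GC box. Slc25a5 held 1 GC box 14 bases before the start and no CCAAT box. Ppif held 1 of each. A CCAAT box was found in 33.8% and a GC box in 32.7% of the 32851 windows of all genes, so these matches are common. None of the 7 windows of the 6 members held the TATA box (TATAAA, in 12.4% of all windows), the core of the NRF1 motif (GCGCATGC, in 2.26%) or a p53 site, taken as a pair of half-sites (in 0.0639%). GC content was 60.4 to 68.4%, beside a median of 52.4%.

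The genes lie apart in the genome (GRCm38, GENCODE M21). Ppif is at chr14:25694154-25700468, Vdac2 at chr14:21825238-21845879 and Micu2 at chr14:57916261-57999262. Slc25a4 (chr8:46206797-46211284) and Vdac3 (chr8:22577075-22593813) share a chromosome, and Slc25a5 is at chrX:36795651-36798807. The RefSeq start used for Slc25a4 lies within its span here, as do both CCAAT boxes and most of the printed window. Vdac1 is at chr11:52360860-52389397, Tspo at chr15:83563592-83574203 and Mcu at chr10:59446984-59616692. Of the 75-base windows of the longest coding transcript, 41% of Vdac3, 27.9% of Slc25a5 and 3.88% of Vdac2 recur in annotated pseudogenes (2, 6 and 1 of them), and none in the other 6 members. Values of Vdac3 and Slc25a5 are therefore uncertain to the extent that reads were split between copies. No window was shared between members.

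Ppif, the gene of cyclophilin D and thus of the mitochondrial target of CsA, varied between lines and overlapped between the types. Its level was 15.1, 40.6 and 19.3 TPM in the Type D lines in Control and 20.3, 29.7 and 19.1 TPM in the Type V lines. Line 4711-18 was highest in each Type D group and 4716-10 in each Type V group, and the overlap held in all 4 conditions. The difference between types in Control was 0.02 on the log2 scale (95% interval -0.73 to 0.76, limma adjusted p = 0.987). The spread among lines thus left differences of moderate size in either direction within the interval.

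After restoration Ppif reached 18.3, 32.9 and 22.6 TPM in Type D, higher in 4711-1 and 4716-11 and lower in 4711-18 than in Control. In Type V it reached 13.7, 19.9 and 19.2 TPM, lower in 4711-11 and 4716-10 and almost unmoved in 4716-14. The changes were 0.06 (-0.68 to 0.80) in Type D and -0.36 (-1.11 to 0.38) in Type V, with limma adjusted p of 0.979 and 0.645. Under CsA the Type V lines went from 17.7, 31.6 and 18.8 to 14.98, 19.7 and 15.2 TPM, a change of -0.39 that passed only with the block (adjusted p = 0.0472, against 0.646 without it). In Type D the change under CsA was -0.22 (-0.96 to 0.53). The positive change without CsA in Type D turned to -0.04 without 4711-1, to -0.02 without 4716-11, to -0.07 with quantile normalization and to -0.04 with median-ratio scaling.

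By the pattern over the 24 libraries, the genes most like Ppif were Septin4 (r = 0.91), Foxa3 (r = 0.90) and Clic5 (r = 0.89), with Pearson's r of log2(TPM + 1). The points share 6 lines, so they are not independent, and the r are given as a description. Septin4 and Foxa3 were low, with means of 1.34 and 2.05 TPM in Type D Control. In restored Type D and in every Type V group, without and with CsA, their means were under 1 TPM, down to 0.201 and 0.0801 TPM. Among the members, Tspo (r = 0.51) and Micu2 (r = 0.48) were the most like Ppif and Vdac3 (r = -0.48) the least.

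The ADP/ATP carriers, which exchange matrix ATP for cytosolic ADP across the inner membrane, were the members with the largest changes on restoration in Type D. Slc25a4 encodes ANT1, the isoform typical of heart and muscle, and Slc25a5 encodes ANT2, the isoform typical of proliferating cells. Their promoter windows, printed above, share none of the motifs searched. In Type D, Slc25a5 stood at 757, 774 and 682 TPM in Control and at 337, 340 and 333 TPM after restoration. The 3 Restored libraries were nearly alike and lay below every Control library.

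The change of Slc25a5 in Type D was -1.13 (SE 0.21, 95% interval -1.57 to -0.68, limma adjusted p = 0.00129), a ratio of 0.458 on this scale. In Type V it went from 1109, 952 and 1160 to 667, 448 and 928 TPM, again without overlap. That change was -0.71 (SE 0.21, -1.16 to -0.27), with a limma adjusted p of 0.038 and of 5.90e-05 with the block. The call in Type V was lost without 4711-11 (adjusted p = 0.204), and also when a Type D line was left out of the shared fit (0.091 without 4711-1, 0.0742 without 4711-18 and 0.0951 without 4716-11), without a filter on low values (0.0563) and with quantile normalization (0.0717). The changes in the types differed by -0.41 (-1.05 to 0.22), which did not pass the test. Slc25a5 belongs to a module of genes that the study chose on Control and Restored libraries of these lines, so its fall is not independent evidence for that module.

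With CsA in both arms Slc25a5 fell by 0.78 in Type D, from 709, 746 and 689 to 422, 419 and 407 TPM (limma adjusted p = 0.0261). Control + CsA and Restored + CsA did not overlap. Leaving out any Type D line ended that call (adjusted p = 0.167 without 4711-1, 0.209 without 4711-18 and 0.217 without 4716-11), while with the block it was 2.62e-05. In Type V it went from 1001, 803 and 1151 to 683, 453 and 783 TPM, a change of -0.64 with a limma adjusted p of 0.0743 and of 1.76e-04 with the block. Without 4716-10 that change passed (-0.55, adjusted p = 0.0384).

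In the restored state CsA went with higher Slc25a5 in each Type D line, by 0.32, 0.30 and 0.29 on the log2 scale. All 3 Restored + CsA libraries, at 407 to 422 TPM, lay above the Restored ones at 333 to 340 TPM. The mean of 0.30 had an interval of -0.14 to 0.75 (limma adjusted p = 1) and with the block of 0.09 to 0.52 (adjusted p = 0.211), so it did not pass. In all, 4 of 9 members (Slc25a5, Slc25a4, Vdac2 and Mcu) were higher and none lower with CsA in all 3 restored Type D lines. In either direction, 38.6% of all genes moved one way in all 3.

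Slc25a4 went from 1431, 1132 and 1321 TPM in Type D Control to 945, 639 and 904 TPM with restoration. The 3 lines fell together and the groups did not overlap. The change was -0.66 (SE 0.20, -1.07 to -0.25, limma adjusted p = 0.0322, and 1.95e-04 with the block). The call missed the threshold without 4711-1 (adjusted p = 0.143), 4711-18 (0.188), 4716-11 (0.158) or the Type V line 4716-14 (0.0555), without a filter on low values (0.0606) and with quantile normalization (0.0703). Under CsA the Type D lines went from 1276, 1122 and 1219 to 1034, 813 and 919 TPM, a change of -0.39 that passed only with the block (adjusted p = 0.01, against 0.254 without it).

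In Type V Slc25a4 went from 1427, 1329 and 1588 to 1610, 1064 and 1396 TPM. It was higher in 4711-11 and lower in the others, with a change of -0.11 (-0.52 to 0.30). The change was lower in each Type D line than in any Type V line, and the difference of the changes was -0.54 (-1.12 to 0.03, unadjusted p = 0.064), with an adjusted p of 1 in limma and of 0.0538 with the block. Such separation was not particular to Slc25a4. It held for Vdac2 in the same direction (difference of the changes -0.20) and for Vdac3 in the opposite direction (0.27). For 22.6% of all genes the line changes of the types were as separate.

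Between the types, Slc25a5 was lower in Type D in every condition without overlap, but passed in Restored alone, at -0.95 (-1.40 to -0.51, limma adjusted p = 0.00544). In Control its difference was -0.54 (adjusted p = 0.106), in Control + CsA -0.45 (0.173) and in Restored + CsA -0.58 (0.0835). Without the Type V line 4716-10 it passed in these 3 conditions too, with adjusted p of 0.00494, 0.00643 and 7.32e-04. Slc25a4 passed in Restored, at -0.71 (-1.12 to -0.30, adjusted p = 0.0197), a call that was lost without 4711-18 (0.111), 4716-11 (0.0623), 4711-11 (0.0905) or 4716-14 (0.0837). Its Control difference was -0.16 (-0.57 to 0.25), and in Restored + CsA it passed without 4716-10 only (0.0105, against 0.0836).

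Added together, the carriers held 2032 ± 144 TPM (SD, n = 3) in Type D Control and 1166 ± 164 in Type D Restored. The corresponding sums in Type V were 2521 ± 234 and 2037 ± 456 TPM. Of these sums the share of Slc25a4 went from 63.6 ± 3.64% to 70.7 ± 4.68% in Type D and from 57.5 ± 1.04% to 67.0 ± 6.05% in Type V. It was higher after restoration in each of the 6 lines, although in 4716-14 only from 57.8% to 60.1%.

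**Figure D4:**
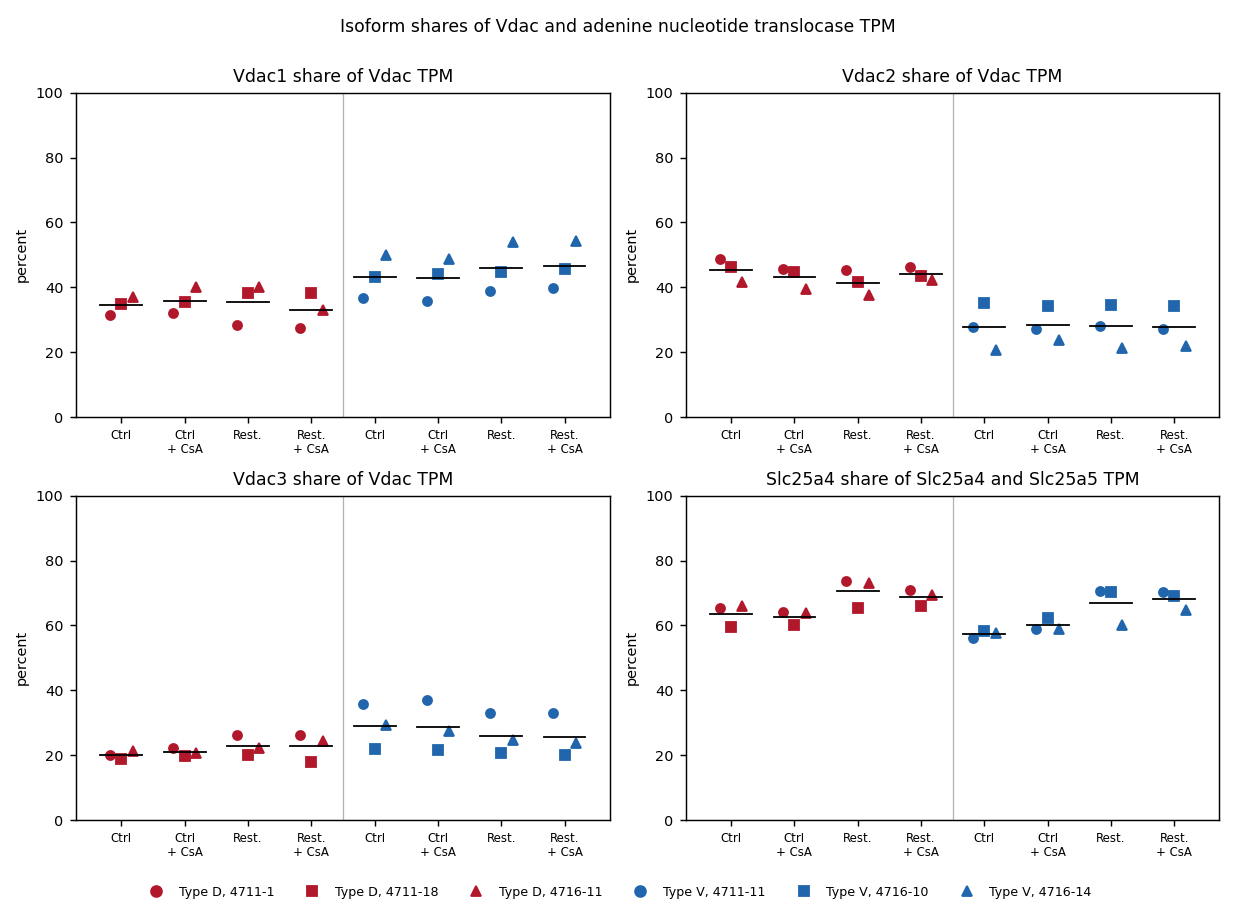
Share in percent of the summed TPM of Vdac1, Vdac2 and Vdac3 held by each, and share of Slc25a4 in the sum of Slc25a4 and Slc25a5 (vertical axes, 0 to 100), in each library. Symbols mark lines, bars are means of 3 lines, and groups are along the horizontal axis. The Vdac2 share is 37.8 to 48.6% in Type D and 20.8 to 35.0% in Type V libraries.

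The VDACs, which let ADP, ATP and other metabolites through the outer membrane, differed between the types in make-up. Vdac2, the isoform known for holding BAK in check, was the 1 that passed. In Control it stood at 579, 430 and 435 TPM in Type D, compared with 267, 365 and 194 TPM in Type V. All Type D libraries were higher than all Type V libraries in each condition. The difference was 0.84 in Control (0.31 to 1.37, limma adjusted p = 0.0346), 0.76 in Control + CsA (0.0488), 0.63 in Restored (0.102) and 0.79 in Restored + CsA (0.0486).

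These calls of Vdac2 are near the threshold and each rests on several lines. In Control the call was lost without 4711-1 (adjusted p = 0.182), 4711-18 (0.0736), 4716-11 (0.0928), 4711-11 (0.113) or 4716-14 (0.109). In Control + CsA the values without these lines were 0.222, 0.109, 0.0987, 0.151 and 0.104, and in Restored + CsA 0.197, 0.118, 0.115, 0.133 and 0.122. Both of the latter calls were lost without a filter on low values (0.068 and 0.0671) and with quantile normalization (0.0551 and 0.0611), and that in Restored + CsA with median-ratio scaling (0.0683). Without 4716-10, the highest Type V line, Vdac2 passed in Restored as well (0.0152). The lowest difference in any of these fits was 0.44, so the direction held in all.

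For Vdac1, the most studied isoform, and Vdac3 the differences between the types were negative and did not pass. Vdac1 was 373, 323 and 389 TPM in Type D Control and 354, 450 and 467 TPM in Type V Control. The ranges overlapped and the difference was -0.22 (-0.55 to 0.11). In Restored + CsA it was -0.39 (-0.72 to -0.06, limma adjusted p = 0.122), and it passed there without the Type V line 4711-11 (0.0379). Vdac3 was 239, 176 and 224 TPM in Type D Control and 346, 227 and 273 TPM in Type V Control, overlapping by 1 Type V library, with a difference of -0.39 (-0.91 to 0.12). Vdac2 thus held 45.5 ± 3.61% of the summed Vdac TPM in Type D Control and 27.8 ± 7.13% in Type V Control (SD, n = 3), while the sum itself was 1056 ± 131 and 981 ± 54.8 TPM.

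With restoration the summed Vdac level went to 853 ± 32.7 TPM in Type D and 828 ± 20.8 TPM in Type V. Vdac2 was lower in all 6 lines, at 403, 346 and 316 TPM in Type D and 230, 295 and 174 TPM in Type V. The changes were -0.43 (-0.96 to 0.10, limma adjusted p = 0.314, and 3.80e-05 with the block) and -0.23 (-0.76 to 0.30, adjusted p = 0.698, and 0.00696 with the block). Vdac3 was lower in all 3 Type V lines, at 270, 175 and 201 TPM, a change of -0.39 that passed with the block only (adjusted p = 5.82e-04, against 0.393). In Type D its change was -0.12 (blocked interval -0.28 to 0.04). Vdac1 was lower in all 6 lines, by 0.26 on average in Type D, which passed narrowly with the block (adjusted p = 0.0476), and by 0.16 in Type V, which did not (0.241).

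With CsA in both arms these changes were again negative. The change of Vdac2 was -0.23 in Type D and that in Type V was -0.26, with blocked adjusted p of 0.00662 and 0.00368. Vdac1 changed by -0.38 in Type D (blocked adjusted p = 0.00804, against 0.161 without the block) and Vdac3 by -0.38 in Type V (8.64e-04, against 0.448). Each of these was lower in all 3 lines of its type.

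Tspo, the outer membrane translocator protein that binds cholesterol, varied most between lines. It ran from 180 to 255 TPM in 4711-11 and from 587 to 1365 TPM in the other 5 lines. In Type D Control it was 1100, 1225 and 1062 TPM, narrowly above the 225, 1047 and 840 TPM of Type V Control. The Control difference of 0.95 had an interval of -0.37 to 2.27 (limma adjusted p = 0.354), and without 4711-11 it was 0.26. With restoration Tspo went to 707, 878 and 766 TPM in Type D, lower in all 3 lines, a change of -0.53 (-1.85 to 0.79, adjusted p = 0.692, and 0.0104 with the block). Under CsA the change was -0.56 (blocked adjusted p = 0.00824). In Type V the changes were mixed, with means of -0.16 and -0.04.

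Mcu, the pore-forming subunit of the calcium uniporter, was the member that separated the types most clearly. In Control it stood at 181, 152 and 151 TPM in Type D, compared with 60.2, 77.9 and 44.6 TPM in Type V. The lowest of the 12 Type D libraries, at 99.8 TPM, was above the highest of the 12 Type V libraries, at 85.0 TPM. The difference was 1.42 in Control (SE 0.25, 0.90 to 1.94, limma adjusted p = 7.22e-04), a ratio of 2.68, and 1.56 in Control + CsA (1.04 to 2.08, adjusted p = 2.97e-04). After restoration it was 1.04 (0.52 to 1.56, adjusted p = 0.00859) and with CsA 1.11 (0.59 to 1.63, adjusted p = 0.0059). In each condition the difference exceeded 1 on the log2 scale, the fold rule of the study, which 8.83%, 9.88%, 9.44% and 7.82% of all genes met together with the test in the same order.

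In Control the call of Mcu held under all 12 alternatives, with differences of 1.22 to 1.62 and adjusted p of at most 0.0275, and in Control + CsA under all 12 as well, with 1.35 to 1.76 and at most 0.0283. In Restored the call was lost without 4711-1 (adjusted p = 0.0633), 4716-11 (0.0624) or 4711-11 (0.0538), and in Restored + CsA without 4711-1 (0.053) or 4716-11 (0.0516). Mcu is in a Type D signature that the study derived from Control libraries of these lines, so its level in Control is not independent evidence.

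With restoration Mcu was lower in all 3 Type D lines, at 126, 99.8 and 124 TPM. The change was -0.47 (-0.99 to 0.05, limma adjusted p = 0.256, and 2.87e-04 with the block). In Type V the Restored libraries were at 48.7, 79.2 and 45.2 TPM, lower in 4711-11 and slightly higher in the others, with a change of -0.09 (blocked interval -0.26 to 0.09). The difference of these changes was -0.39 (-1.12 to 0.35) and missed the threshold with the block (adjusted p = 0.0659). Under CsA the Type D lines went from 206, 152 and 165 to 150, 120 and 139 TPM, a change of -0.35 (blocked adjusted p = 0.0035).

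Micu2, which helps to gate the uniporter at low calcium, passed in no comparison. It was 73.3, 62.1 and 44.5 TPM in Type D Control and 37.0, 71.4 and 44.1 TPM in Type V Control. The types overlapped and the difference was 0.26 (-0.39 to 0.92). The ratio of Mcu to Micu2 TPM was 2.77 ± 0.534 in Type D Control and 1.24 ± 0.334 in Type V Control (SD, n = 3). In each condition the lowest Type D line had a higher ratio than the highest Type V line, with the smallest gap in Restored, between 1.82 and 1.61. With restoration the change of Micu2 was -0.17 in Type D and its change in Type V was -0.20, which did not pass with the block either (adjusted p = 0.123 and 0.0786).

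Other genes of calcium handling and of the transition were read from lists of 7, 16 and 15 genes. No gene of the list of 7 calcium handling genes passed with restoration in either type. With the block Slc8b1, the sodium/calcium exchanger that returns calcium to the cytosol, rose in both, by 0.72 in Type D (adjusted p = 0.00762) and by 1.03 in Type V (6.79e-04), and Smdt1, the small subunit that couples Mcu to its gatekeepers, fell by 0.29 (0.00368) and 0.30 (0.00327). These were the only genes of the list to pass with the block, 1 higher and 1 lower in each type. In either direction, 45.3% of all genes passed with the block in Type D and 40.6% in Type V. In Type D the median change of the list was -0.07 and in Type V it was 0.18, beside 0.07 and 0.05 for all genes.

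The 16 ATP synthase genes, all tested, were mostly lower with restoration. In Type D all 16 had negative changes, with a median of -0.39 beside 0.07 for all genes. One, Atp5a1, the alpha subunit of the catalytic core, passed (-0.73, limma adjusted p = 0.0167), and with the block 12 of 16 were lower, against 17.6% of all genes. In Type V 14 of 16 were negative with a median of -0.21, none passed, and with the block 8 were lower and 1 was higher, against 17.8% of all genes lower and 40.6% in either direction. With CsA in both arms the medians were -0.31 in Type D and -0.25 in Type V, beside 0.09 and 0.04 for all genes. With the block 8 of 16 were lower in Type D, against 14% of all genes, and in Type V 9 were lower, against 16.5%, and 1 was higher. For the membrane subunit c, a pore candidate, the changes of Atp5g1, Atp5g2 and Atp5g3 in Type D were -0.92, -0.61 and -0.38 (blocked adjusted p = 4.14e-05, 6.39e-06 and 0.0165, and above 0.05 without the block). Atp5g1 is in the same study module as Slc25a5. Between the types 1 of 16 passed in any condition, Atpif1, the inhibitor of the synthase, in Control + CsA (0.57, adjusted p = 0.0427).

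Of 15 carriers and regulators 11 were tested, the others (Slc25a31, Ckmt2, Tspoap1 and Tspo2) reaching at most 0.886 TPM. In these lists the genes named singly, other than Hk2 and Ckmt1, were picked after their values were seen. Slc25a24, a carrier that loads adenine nucleotides into the matrix under calcium control, was higher in Type D in all 4 conditions, by 0.70 to 0.99 (limma adjusted p of 0.00327 to 0.0263). Hk1, a hexokinase that docks on VDAC, was higher in Control (0.59, adjusted p = 0.0367). Hk2, its relative, and Afg3l2, a protease of the inner membrane, were higher in Restored (2.64 and 0.74, adjusted p = 0.0164 and 0.035). With restoration Ckmt1, the mitochondrial creatine kinase of the intermembrane space, rose from a mean of 5.29 to 45.9 TPM in Type D (change 2.90, adjusted p = 0.0225) and from 0.548 to 47.9 TPM in Type V (5.07, adjusted p = 3.59e-04). It rose under CsA too, by 3.05 and 4.71. Hk1 was the other one to pass, higher with restoration under CsA in Type V (0.61, adjusted p = 0.0417). With the block 7 of the 11 were higher and 1 was lower in Type D, where 45.3% of all genes passed in either direction, and 4 were higher and 0 lower in Type V, against 40.6%. Under CsA 3 were higher and 0 lower in each type, against 41.1% and 37.1%. Slc25a3, the phosphate carrier, did not pass without the block, and with it rose in Type D by 0.32 (adjusted p = 0.0104), while the ADP/ATP carriers fell there.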

How the data were processed

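The values analysed are TPM per gene for 25239 gene symbols in 24 libraries, as deposited by the authors in 1 table. Reads were single-end, of 75 bases, from stranded mRNA libraries. Both kallisto and HISAT2 are named in the sources used here, and the builds mm10 and GRCm39 are given. Which of them made the deposited values is not stated. TPM keep no read depth, so the depth of each library is unknown and no counting interval is given. Each library summed to 1000000 TPM, and 11853 to 12651 genes reached 1 TPM. Transcripts encoded by the mitochondrial genome were not analysed here.

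Samples were grouped by the labels into 8 groups of 3 lines. The 14104 genes that reached 1 TPM in 3 or more libraries were tested on log2(TPM + 1) with limma 3.58.1 in R 4.3.3, in a fit with 1 mean per group, a trended prior and two-sided moderated tests. Benjamini-Hochberg adjustment ran over all tested genes within each of 13 comparisons. A gene passed at an adjusted p under 0.05, the intervals are 95%, and fold changes are on the log2(TPM + 1) scale, which understates those of low genes. The libraries of a line are paired across conditions by the labels. Their deviations from group means correlated at 0.599 to 0.929 (36 pairs, median 0.76), and those of different lines at -0.727 to 0.0438 (96 pairs). The block took the cell line as a fixed effect. No 2 libraries were identical, and libraries of 1 group correlated at 0.883 to 0.978. Lines are separate tumors, with 1 library per line and condition. The Control libraries serve both the comparison of types and that of restoration.

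Alternative settings were 0.1 as pseudocount, no filter, a minimum of 5 TPM, quantile normalization, median-ratio scaling, a fit to the compared groups alone, the block, and each line left out. The scripts were tested on simulated data. The members and the gene lists were chosen with earlier results of these data known. Every member is reported. Results of 2 genes of the lists are not reported here. Among other genes, those past the test with a change of at least 1 on the log2 scale were to be named, with the 3 genes of highest Pearson's r with Ppif. Windows of 75 bases and gene positions came from GENCODE M21, promoters from RefSeq. Tables and plots were made with Python 3.11.15, pandas 2.3.3, numpy 2.4.6 and matplotlib 3.10.9.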

Additional observations from a re-analysis of the deposited data

Results flagged for a closer look

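CsA without restoration went with higher Vdac1 in all 3 Type D lines, by 0.067 on the log2(TPM + 1) scale on average, and with lower Vdac1 in all 3 Type V lines, by -0.039 on average. The result stands here because every line of one type moved one way and every line of the other the opposite way. The difference between the types was not tested, neither change passed the test within its type (limma adjusted p = 1 for both), and 34.1% and 37.9% of all genes moved one way in all 3 lines of a type. Groups of 3 lines were too small to be searched for a line far from the others.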

How the results depend on the processing

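Of 1485 values of a member in a comparison under an alternative, 1410 kept their side of the threshold, 52 no longer passed, 23 newly passed (15 of them with the block) and none that passed changed sign, while 44 that passed in neither fit did. With the replicate block of the cell line, the number of the 9 genes that passed with restoration was 6 in Type D (2 without it) and 3 in Type V (1), and under CsA 6 (1) and 4 (0). It changed no other call of a member, and no paired analysis was possible between the types because a line has 1 type. The fit to all groups counts the libraries of a line as independent in its spread, so its p between the types may be too small. A fit to the compared groups alone avoids this between the types and leaves fewer samples. With it 1, 1, 0 and 1 of 9 passed between the types in Control, Control + CsA, Restored and Restored + CsA (2, 2, 3 and 2 in the fit to all groups), and with restoration 1 in Type D and 0 in Type V. Mcu then missed the threshold in Restored (limma adjusted p = 0.0788), and so did Slc25a5 (0.122) and Slc25a4 (0.193), Vdac2 in the 3 conditions where it had passed (0.128, 0.119 and 0.112), and with restoration Slc25a4 in Type D (0.105) and Slc25a5 in Type V (0.311). Without a filter on low values, and likewise with quantile normalization, 1 passed between the types in Control + CsA and 1 in Restored + CsA, and with restoration 1 in Type D and 0 in Type V. With median-ratio scaling 1 passed between the types in Restored + CsA and 1 with restoration under CsA in Type V. For these the cause was not tested. Leaving out 1 line at a time gave 1 to 3 between the types in Control, 1 to 3 in Control + CsA, 1 to 4 in Restored and 0 to 4 in Restored + CsA. With restoration it gave 1 to 2 in Type D and 0 to 1 in Type V, and under CsA 0 to 1 in each type. The highest counts between the types came without the Type V line 4716-10. Of 72 group means, 4 moved by more than 1 SD with median-ratio scaling, in Type D Slc25a4 in Control + CsA to 1296 TPM, and Slc25a5 in Control + CsA to 766, in Restored to 331 and in Restored + CsA to 406 TPM. No setting moved the 0 calls of CsA or of the difference in restoration between types. With 3 lines per type and 1 library per line, small differences could not be called, and without counts the depth behind a TPM value cannot be judged.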
